A study of Mus musculus with 14 samples.

Results

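Plau, Plat, Plaur, Serpine2 and Serpinb2 make up a core of the plasminogen activation system in mouse: both plasminogen activators, the receptor of one of them, and 2 serpins, a family of protease inhibitors, that block them. They were matched by gene symbol in both deposited tables, as 5 of 56953 genes after BaCl2 and 5 of 14330 genes after glycerol, and all 5 had enough counts to be tested. They were in part selected on measured values, the higher Serpinb2 and lower Serpine2 of SMA cells after BaCl2, so their values after BaCl2 are given as a description, with no test. That rule used no values of the glycerol libraries, and there the members were tested. Earlier results of these data were known when the members were chosen.

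The cells were fibro-adipogenic progenitors (FAPs), stromal cells of muscle from which fat and fibrous tissue can form. They came from the tibialis anterior (TA) muscle by MACS, a magnetic sort, on day 3 after an injury, and their RNA was extracted without culture. Each injury had SMA mice, read here as the spinal muscular atrophy genotype, and wild-type (WT) mice, and no allele, sex or age is named in the sources used here. After BaCl2, a salt that kills muscle fibres, there were 3 SMA and 3 WT libraries. After glycerol, which leaves more fat in regenerating muscle, there were 4 SMA and 4 WT libraries. The labels do not say whether libraries of a group came from separate animals, so the tests measure the spread between these libraries. The labels name the injury as the batch and the tables were normalized separately, so an effect of the injury and one of the batch cannot be told apart, and levels are not tested across injuries.

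Plasminogen is a plasma protein that becomes the broad protease plasmin when it is cut by urokinase (Plau) or tissue-type plasminogen activator (Plat). Plaur anchors urokinase at the cell surface, and plasmin dissolves fibrin and helps open the matrix to migrating cells, which injured muscle needs for clearing debris and regenerating. Serpins stop these proteases by forming a covalent complex with them. Serpine2, or protease nexin-1, is secreted and binds thrombin as well as both activators, while Serpinb2 is made mainly by monocytes, macrophages and keratinocytes and stays largely inside the cell.

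Library totals ran from 97.7 M to 136 M counts after BaCl2 (M, mega), and from 71.4 M to 76.6 M normalized counts after glycerol, where depth is unknown. Smn1, the gene deficient in spinal muscular atrophy, was at 9.995 to 11.96 CPM (counts per M, scaled by TMM) in SMA and 15.3 to 17.2 CPM in WT libraries after BaCl2, and at 639.6 to 806 in SMA and 935 to 1209 normalized counts in WT libraries after glycerol. The 10 FAP markers were detected in every library, with Pdgfra at 714 CPM or more after BaCl2. Macrophage and monocyte markers were also detected throughout and moved with genotype. After BaCl2 their 15 genes summed to 2043 to 3092 CPM in SMA libraries and 1123 to 1568 CPM in WT libraries, and 13 of 15 rose and 0 fell (edgeR, adjusted p under 0.05). After glycerol they summed to 118981 to 287816 in SMA and 104475 to 134444 normalized counts in WT libraries, and 6 of 15 rose and 0 fell (limma, adjusted p under 0.05). SMA replicate 3 was the lowest SMA library for this sum after both injuries. Of 8 neutrophil markers 6 were tested after BaCl2, where 2 rose and 0 fell, and their sum was 19.3 to 37.0 CPM in SMA libraries and 9.02 to 13.4 CPM in WT libraries. After glycerol the neutrophil markers summed to 1376 to 2359 in SMA and 805 to 1285 normalized counts in WT libraries (limma, 1 of 6 rose and 0 fell). Schwann cell markers summed to 23.0 to 29.0 CPM in SMA libraries and 9.88 to 14.7 CPM in WT libraries after BaCl2 (3 of 5 rose), and pericyte and smooth muscle markers to 133 to 159 CPM in SMA libraries and 88.5 to 121 CPM in WT libraries (1 of 5 rose). After glycerol endothelial markers summed to 6706 to 8708 in SMA and 10864 to 15823 normalized counts in WT libraries (1 of 6 fell), with WT replicate 4 the highest. Pericyte and smooth muscle markers summed to 4526 to 6299 in SMA and 6098 to 9101 normalized counts in WT libraries, with WT replicate 4 again the highest (limma, 0 of 5 passed). In bulk RNA, fewer cells of a type and less RNA per cell cannot be told apart, and this holds for every level below.

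Plau encodes urokinase, the activator most tied to cell migration and tissue repair. After BaCl2 it was at 969, 914 and 700.3 CPM in SMA libraries and at 826, 908 and 748 CPM in WT libraries. The groups overlapped, with SMA libraries both the highest and the lowest of the 6. The means were 861 ± 142 CPM in SMA and 828 ± 80.3 CPM in WT (SD, n = 3 each), a log2 fold change of 0.06 (SE 0.12). Plau ranked 117 from the top of the 20119 genes tested, and its direction turned to -0.031 without SMA replicate 1 and to -0.012 without WT replicate 3.

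After glycerol Plau was at 53554, 50071, 59756 and 53255 normalized counts in SMA libraries and at 54973, 53436, 49461 and 92119 normalized counts in WT libraries. A single WT library, replicate 4, stood above the other 7, which lay close together. The log2 fold change was -0.16 (SE 0.17, 95% confidence interval -0.56 to 0.23), and Plau did not pass (limma, adjusted p = 0.617, adjusted over all 14330 genes). Without WT replicate 4 it was 0.040 (adjusted p = 0.787).

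Plat encodes tissue-type plasminogen activator, best known for dissolving clots in vessels. After BaCl2 it was at 137, 165 and 168 CPM in SMA libraries and at 182, 187 and 169 CPM in WT libraries. The SMA libraries were all below the WT libraries, though SMA replicate 3 and WT replicate 3 differed by little. The means were 157 ± 16.6 CPM in SMA and 179 ± 9.47 CPM in WT (SD, n = 3 each), a log2 fold change of -0.20 (SE 0.08). With each library left out in turn it lay between -0.24 and -0.11, the smallest without SMA replicate 1.

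After glycerol Plat was at 11365, 11326, 11866 and 13402 normalized counts in SMA libraries and at 11796, 10334, 10473 and 18352 normalized counts in WT libraries. The groups overlapped, and WT replicate 4 was again the highest library. The log2 fold change was -0.05 (SE 0.17, 95% confidence interval -0.43 to 0.33; limma, adjusted p = 0.892). It turned to 0.14 without WT replicate 4 (adjusted p = 0.340). Of all libraries after glycerol, that one had the highest FAP, endothelial, and pericyte and smooth muscle marker sums. Within the WT group it also had the highest macrophage and neutrophil sums, but not the highest Schwann cell sum. The part of these cells was not tested.

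Plaur encodes the urokinase receptor, a membrane-anchored protein that focuses urokinase on the cell surface and is made by stromal and myeloid cells. After BaCl2 it was at 113, 111 and 117 CPM in SMA libraries and at 90.2, 88.9 and 88.1 CPM in WT libraries. The libraries of each genotype lay close together and the groups did not overlap. The means were 114 ± 3.31 CPM in SMA and 89.1 ± 1.06 CPM in WT (SD, n = 3 each), with SMA 1.28 times WT and a log2 fold change of 0.35 (SE 0.05). It stayed between 0.34 and 0.37 when each library was left out in turn.

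After glycerol Plaur was at 5210, 5789, 4931 and 6483 normalized counts in SMA libraries and at 4676, 4014, 4386 and 5493 normalized counts in WT libraries. The groups overlapped, with 2 of 4 SMA libraries above every WT library. The log2 fold change was 0.27 (SE 0.11, 95% confidence interval 0.02 to 0.52), with an unadjusted p of 0.0352 (limma). It did not pass once adjusted over all genes (adjusted p = 0.180), nor with any 1 library left out (adjusted p 0.0909 to 0.349). The macrophage marker sum moved with genotype in the same libraries, and its part in the Plaur difference was not tested. Set per 1000 of that sum, Plaur was at 36.4, 44.3 and 57.5 in SMA and 57.5, 79.2 and 72.6 in WT libraries after BaCl2, so on this scale the SMA libraries were the lower ones, the nearest pair nearly equal. After glycerol it was at 24.6, 23.5, 41.4 and 22.5 in SMA and 35.5, 38.4, 38.1 and 40.9 in WT libraries, with only SMA replicate 3 above any WT library.

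Serpine2 encodes protease nexin-1, the secreted serpin that blocks thrombin, urokinase and tissue-type plasminogen activator. After BaCl2 it was at 76.0, 91.3 and 87.6 CPM in SMA libraries and at 136, 148 and 143 CPM in WT libraries. The groups lay far apart, with even the highest SMA library well below the lowest WT library. The means were 85.0 ± 7.96 CPM in SMA and 142 ± 6.07 CPM in WT (SD, n = 3 each), so SMA was at 59.8% of WT, a log2 fold change of -0.74 (SE 0.08). It lay between -0.79 and -0.66 when each library was left out in turn. The 10 FAP markers also summed lower in SMA libraries after BaCl2, to 23547 to 28331 CPM against 33724 to 37269 CPM in WT libraries, with 4 of 10 falling and 0 rising, and their part in the Serpine2 difference was not tested. Most of that sum is Col3a1, a collagen gene, which averaged 21282 CPM in SMA libraries and 29944 CPM in WT libraries. The 4 that fell were Col3a1, Vcam1, Ly6a and Lum, and the others did not pass. Pdgfra itself averaged 868 CPM in SMA libraries and 895 CPM in WT libraries (edgeR, adjusted p = 0.889). Cd34 averaged 171 CPM in SMA libraries and 179 CPM in WT libraries (edgeR, adjusted p = 0.830).

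After glycerol Serpine2 was at 4003, 4522, 3965 and 4069 normalized counts in SMA libraries and at 3473, 3760, 3311 and 5098 normalized counts in WT libraries. All 4 SMA libraries lay above 3 of the WT libraries and below WT replicate 4. The log2 fold change was 0.10 (SE 0.12, 95% confidence interval -0.18 to 0.38), and Serpine2 did not pass (limma, adjusted p = 0.665). It was 0.24 without WT replicate 4 (adjusted p = 0.125), 0.051 without WT replicate 1 (adjusted p = 0.871) and 0.029 without WT replicate 3 (adjusted p = 0.929). The fold change was thus negative after BaCl2 and near 0 to slightly positive after glycerol, and the difference between the injuries was not tested.

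Serpinb2 encodes plasminogen activator inhibitor type 2, an inhibitor of urokinase above all, which inflammatory signals induce strongly in monocytes and macrophages. After BaCl2 it was at 7.07, 4.02 and 3.42 CPM in SMA libraries and at 1.62, 1.09 and 1.02 CPM in WT libraries, which were 722, 546 and 443 counts in SMA and 221, 126 and 135 counts in WT libraries. Every SMA library was above every WT library, and SMA replicate 1 stood above the other SMA libraries. The means were 4.84 ± 1.96 CPM in SMA and 1.24 ± 0.329 CPM in WT (SD, n = 3 each), with SMA 3.89 times WT and a log2 fold change of 1.95 (SE 0.29). It lay between 1.58 and 2.19 when each library was left out in turn. The authors' deposited table gives no fold change for Serpinb2 after BaCl2. In the GENCODE vM21 annotation 291 exonic bases of Serpinb2 are shared with Serpinb10 on the same strand, and Serpinb10 had only 13, 24 and 10 counts in SMA and 6, 6 and 20 counts in WT libraries.

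After glycerol Serpinb2 was at 223, 168, 499.8 and 568 normalized counts in SMA libraries and at 212, 61.6, 136 and 544 normalized counts in WT libraries. The ranges of the genotypes overlapped widely, and the 3 highest libraries were SMA replicates 3 and 4 and WT replicate 4. The log2 fold change was 0.86 (SE 0.64, 95% confidence interval -0.57 to 2.30), and Serpinb2 did not pass (limma, adjusted p = 0.449). This interval holds both no difference and the size seen after BaCl2. Without WT replicate 4 it was 1.40 (adjusted p = 0.201), and without WT replicate 2 it was 0.36 (adjusted p = 0.746). These fold changes compare means of log2 values. By the ratio of plain means over all libraries SMA was 1.53 times WT, and the authors' deposited log2 fold change was 0.61.

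**Figure D1:**
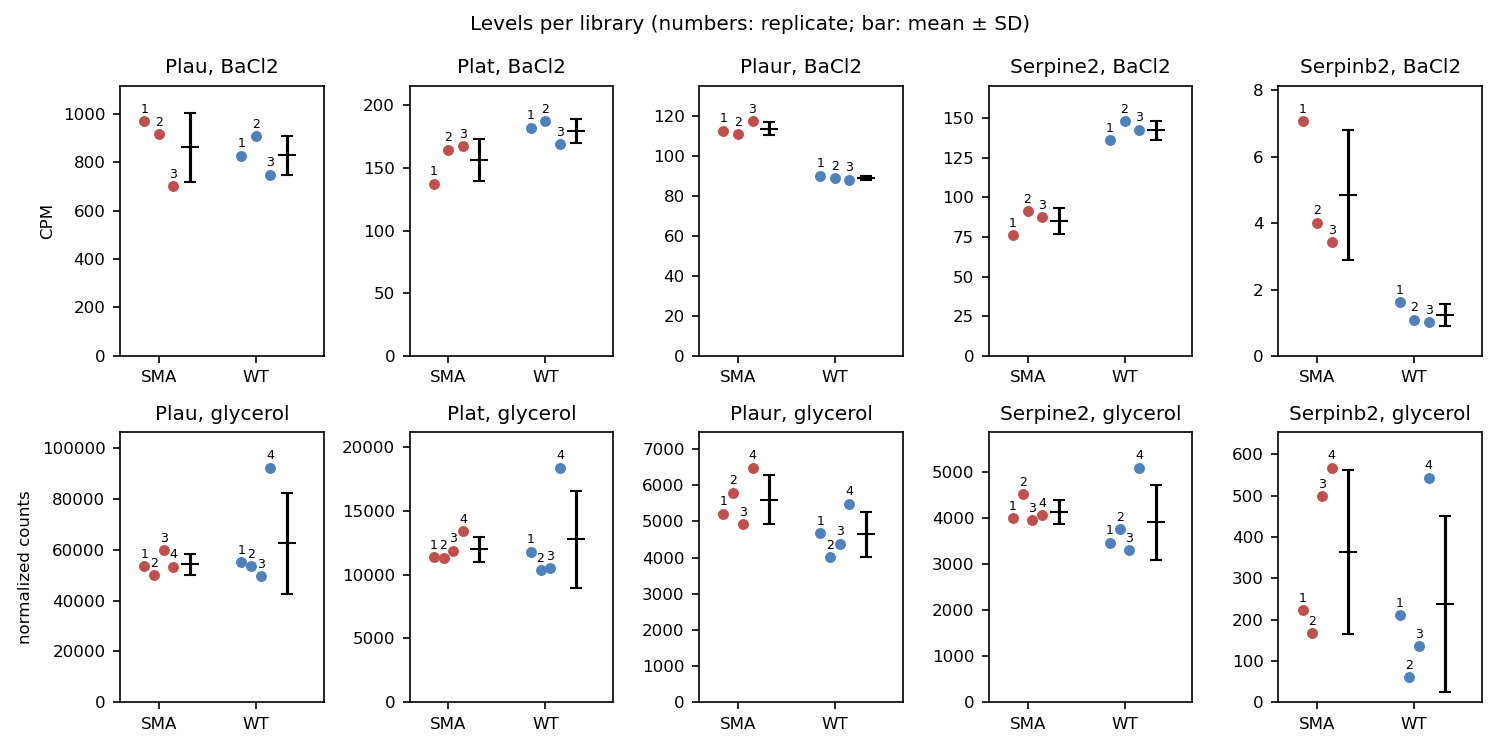
Levels of the 5 genes in each library, in CPM after BaCl2 (top row) and in the authors' normalized counts after glycerol (bottom row), with SMA left of WT; points are libraries with their replicate number and bars are mean ± SD. After BaCl2 the SMA and WT libraries are apart for Serpine2, Serpinb2, Plaur and Plat, and after glycerol WT replicate 4 is the highest WT library for all 5 genes.

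The plot of levels by library shows 4 of the 5 genes with no overlap between SMA and WT libraries after BaCl2, where 25.3% of all tested genes had none. That contrast helped to choose the genes, so nothing is read from the count. After glycerol 0 of the 5 were without overlap, where 14.1% of all genes were, 6.59% with SMA above and 7.54% with SMA below. There 0 of the 5 passed, where 2.87% of all genes did, 1.7% rising and 1.17% falling (limma; Plaur alone at an unadjusted p under 0.05, as 23.3% of all genes, and 0 of 5 by the adjusted p of the authors' deposited table). WT replicate 4 after glycerol was at 1.75 times the mean of the other WT libraries for Plau, 1.69 times for Plat, 1.26 times for Plaur, 1.45 times for Serpine2 and 3.99 times for Serpinb2.

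**Figure D2:**
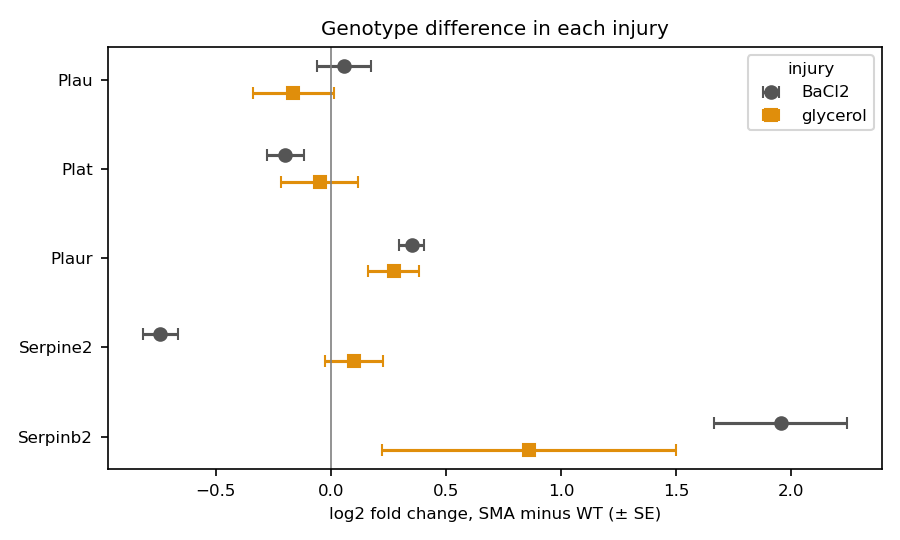
Log2 fold change (SMA minus WT, x axis) with its SE for each gene, after BaCl2 (circles) and glycerol (squares). Serpine2 lies at -0.74 after BaCl2 and 0.10 after glycerol, Serpinb2 lies at 1.95 and 0.86, and Plaur at 0.35 and 0.27. Values after BaCl2 are from edgeR, and those after glycerol compare means of log2 values.

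**Figure D3:**
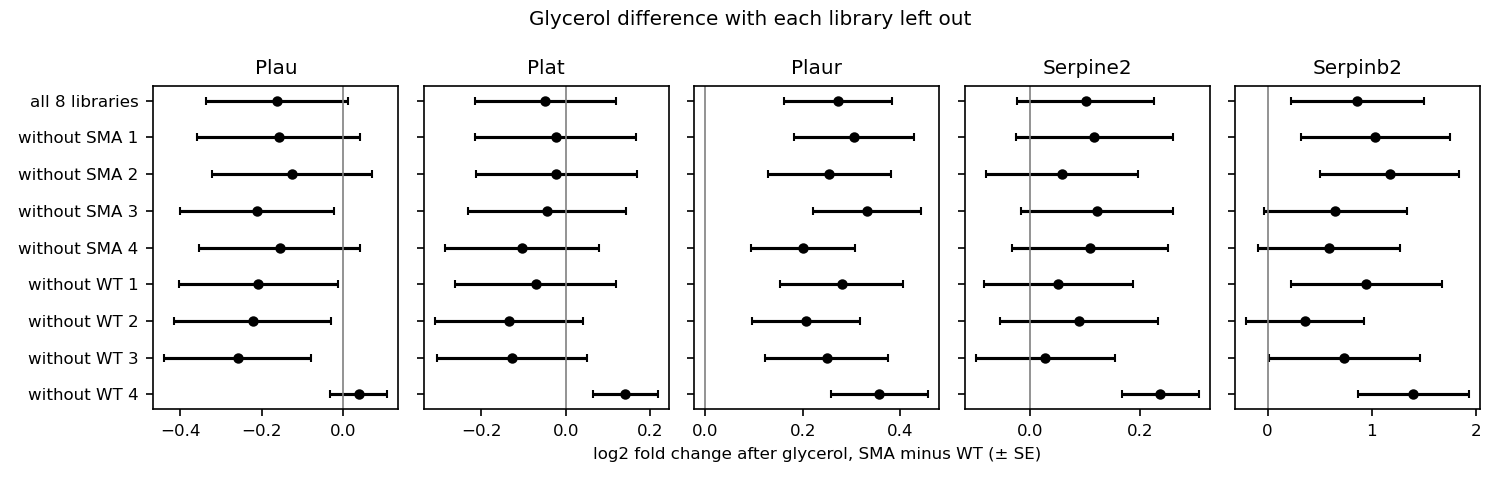
Log2 fold change after glycerol (SMA minus WT, x axis, ± SE) with all 8 libraries and with each library left out in turn, 1 panel per gene. Leaving out WT replicate 4 turns Plau to 0.040 and Plat to 0.14 and gives the highest values for Plaur, Serpine2 and Serpinb2.

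The plot of both injuries sets the genotype differences side by side, and the plot with each library left out shows how far single libraries carry those after glycerol. With all 8 libraries and with each left out, Plaur was above 0 by more than its SE after glycerol, which none of the other 4 was throughout. Levels between genes can be compared only per length, here as CPM per kilobase (kb) of annotated exon after BaCl2. On that scale Plau averaged 364 in SMA and 350 in WT libraries, Plaur 43.4 in SMA and 34.0 in WT, Plat 25.1 in SMA and 28.8 in WT, Serpine2 10.3 in SMA and 17.1 in WT, and Serpinb2 2.06 in SMA and 0.529 in WT. Both serpins were thus minor transcripts beside Plau in either genotype. Each length covers all annotated exons of a gene. It was 8287 bases for Serpine2, 6241 for Plat, 2617 for Plaur and 2367 for Plau. Which transcripts were present is not known, so the order of Plaur, Plat and Serpine2 rests on this choice. In CPM, Plat was above Plaur in both genotypes.

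Ratios within a library do not depend on how it was scaled. After BaCl2 the ratio of Plau to Serpine2, an activator over an inhibitor, was 12.7, 10.02 and 7.997 in SMA and 6.09, 6.14 and 5.25 in WT libraries, with no overlap. After glycerol the same ratio was 13.4, 11.1, 15.1 and 13.1 in SMA and 15.8, 14.2, 14.9 and 18.1 in WT libraries, with overlap. After BaCl2 the ratio of Serpine2 to Serpinb2 was 10.8, 22.7 and 25.6 in SMA and 83.8, 136 and 140 in WT libraries. After glycerol that ratio was 17.9, 26.9, 7.93 and 7.16 in SMA and 16.4, 61.0, 24.4 and 9.37 in WT libraries, again with overlap. All are ratios of CPM or normalized counts, not per length, and those after BaCl2 follow from the values that chose the genes.

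**Figure D4:**
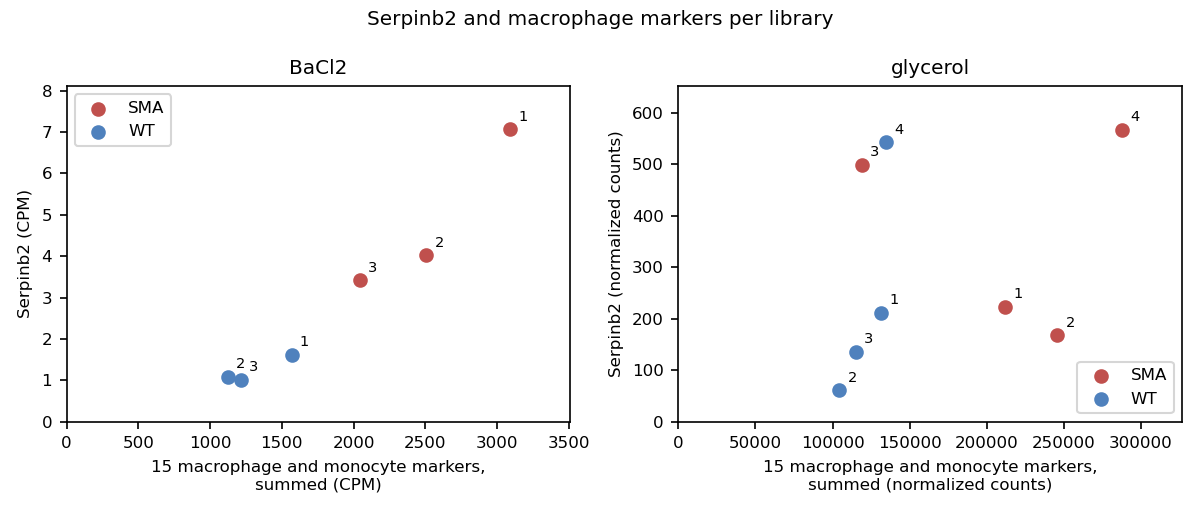
Serpinb2 (y axis) against the sum of 15 macrophage and monocyte markers (x axis) per library, in CPM after BaCl2 and in normalized counts after glycerol; numbers are replicates. After BaCl2 the libraries climb together with SMA replicate 1 at the top right. After glycerol SMA replicate 4 is the highest on both axes, and the WT libraries have the same order on both. SMA replicate 3 and WT replicate 4 there combine high Serpinb2 with a marker sum of at most 134444.

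Since macrophages are a known source of Serpinb2, its level was set beside the macrophage markers of the same library. None of the 15 markers was at 0 in any library. Lyz2 was the most abundant of these markers after both injuries, so it weighs most in their sum. Per 1000 of the marker sum, Serpinb2 was at 2.29, 1.603 and 1.676 in SMA and 1.03, 0.970 and 0.840 in WT libraries after BaCl2. The genotypes were apart on that scale, but Serpinb2 was chosen for its higher level in SMA there, so nothing is read from this gap. After glycerol this Serpinb2 ratio was at 1.06, 0.684, 4.20 and 1.97 in SMA and 1.61, 0.590, 1.18 and 4.04 in WT libraries. The genotypes overlapped. SMA replicate 3 after glycerol had the lowest marker sum of its group and the second-highest Serpinb2 of that group. SMA replicate 4 had the highest marker sum (287816) and the highest Serpinb2 (568 normalized counts) of all libraries after glycerol. In WT libraries the order by Serpinb2 was that by marker sum, with WT replicate 4 the highest in both. The part of these cells in the Serpinb2 difference was not tested.

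The promoters of the genes that stood apart after BaCl2 are shown because those of the higher and the lower serpin differed in base composition and motifs. RefSeq windows of the 250 bases before the annotated start were found for 3 of the 5 genes (GRCm38.p6), and Plau and Plat are named only. Of the 2 entries of Serpinb2 the one with the upstream start is printed. Capitals mark matches to TGANTCA (the AP-1 site), TATAAA (the TATA box) and GGGCGG (the GC box) on either strand, and TGACGTCA (the cyclic AMP response element) had no match in them. Neighbouring GC boxes can share a base.
Serpine2, chr1:79858666-79858915, minus strand: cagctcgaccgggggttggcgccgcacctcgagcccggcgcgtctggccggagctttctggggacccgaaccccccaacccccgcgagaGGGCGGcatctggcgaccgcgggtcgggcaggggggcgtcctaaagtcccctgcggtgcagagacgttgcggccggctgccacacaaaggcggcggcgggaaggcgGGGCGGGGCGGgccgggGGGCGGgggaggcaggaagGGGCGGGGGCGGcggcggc
Serpinb2, chr1:107511173-107511422, plus strand: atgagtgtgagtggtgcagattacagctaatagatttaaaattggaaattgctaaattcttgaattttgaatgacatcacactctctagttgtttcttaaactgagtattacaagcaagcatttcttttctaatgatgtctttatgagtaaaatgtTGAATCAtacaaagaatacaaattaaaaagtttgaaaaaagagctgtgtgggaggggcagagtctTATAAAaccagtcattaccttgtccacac
Plaur, chr7:24462233-24462482, plus strand: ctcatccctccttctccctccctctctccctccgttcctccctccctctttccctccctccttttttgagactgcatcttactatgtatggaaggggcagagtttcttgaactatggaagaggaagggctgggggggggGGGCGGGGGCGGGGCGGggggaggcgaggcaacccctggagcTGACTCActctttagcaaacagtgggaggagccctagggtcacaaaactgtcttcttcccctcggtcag

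The Serpine2 window was 78.8% G or C and held 6 GC boxes, with no match to the AP-1 site or the TATA box. The Serpinb2 window was 32.4% G or C and held a TGAATCA that begins at -94 and a TATAAA that begins at -29 from the start, with no GC box. From the start of its other entry the same letters begin at -181 and -116, and that window was 38.4% G or C. The Plaur window was 59.6% G or C, with a TGACTCA beginning at -69 and 3 GC boxes. Of all 32851 RefSeq windows of this length, 6.75% held TGANTCA, 12.4% TATAAA, 32.7% GGGCGG and 1.55% TGACGTCA. These are letter matches, and no binding was measured.

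For each gene the likeness of every other gene was taken as the lower of its correlations over the 6 BaCl2 and over the 8 glycerol libraries, among 12098 genes with at least 1 CPM after BaCl2 (Pearson correlations of log2 values). Both genotypes are in each set of libraries, so a shared genotype difference adds to these values. Plau was most like Bmp2 (0.88), a bone morphogenetic protein, then Pdpn (0.85), a mucin-type membrane protein of activated stroma, Fjx1 and Slc11a2 (both 0.84). Plat was most like Cacnb3 (0.93), a calcium channel subunit, Sphk1 (0.90), a sphingosine kinase, Dram1 (0.88) and Sorcs2 (0.87). Plaur was most like Traf1 (0.96), an adaptor of TNF receptor signalling, then Ifnar1, a chain of the type I interferon receptor, Apobr and Mgat5 (all 0.93). Serpine2 was most like Tmem59 (0.90), Rnf11, Cryzl2 and the collagen-binding receptor Antxr1 (all 0.88). Serpinb2 was most like Glul (0.90), glutamine synthetase, then Zc3h12a, an RNase that limits inflammatory transcripts, and Cxcl3, a neutrophil chemokine (both 0.89), and Hcar2 (0.88).

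Among the 5 genes themselves, Plaur and Serpinb2 had a correlation of 0.91 over the BaCl2 and 0.73 over the glycerol libraries. Plat and Serpine2 were at 0.82 and 0.76. Both serpins were chosen for their genotype differences after BaCl2. The values over the BaCl2 libraries thus follow in part from that choice, and no shared variation within a genotype is read from them. Serpine2 and Serpinb2 were at -0.98 over the BaCl2 libraries, which their choice for opposite genotype differences there fixed, and at 0.49 over the glycerol libraries. Plau and Plat were at -0.34 over the BaCl2 and 0.91 over the glycerol libraries. The high values of WT replicate 4 enter all those after glycerol.

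The wider system was described by 6 lists with 105 genes, of which 59 could be tested after BaCl2. There 8 rose, 4 fell and 47 did not pass (edgeR, adjusted p under 0.05). That was 20.3% called, against 4.29% of all genes tested, of which 2.73% rose and 1.56% fell. The lists were chosen with earlier results of these data known, so nothing is read from that excess. The balance of directions depended on the method, with 9 higher and 9 lower by DESeq2, 9 higher and 13 lower with no filter on low counts, and 8 higher and 8 lower in the authors' deposited table. The median log2 fold change of the 59 was -0.07, with -0.0028 over all genes. The count depended on single libraries: 7 passed without SMA replicate 1, 5 without SMA replicate 2, 4 without WT replicate 2 and 0 without WT replicate 3. F10, Itgam and Itgb2 passed in each of the 5 fits that kept WT replicate 3. Of the 6 fits with a library left out, Thbd passed in 4, F2rl1, F3 and Serpinb8 in 3, F13a1 and Serpina3f in 2, F7 and Tfpi2 in 1 and Serpina12 in 0. Of the 8 that rose, Itgam is also in the macrophage marker list that rose in the same libraries, and the part of those cells was not tested.

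Plasminogen itself was nearly undetected in these cells, with 1, 4 and 1 counts in SMA and 25, 2 and 0 counts in WT libraries after BaCl2. It is made mainly by liver. Of the 6 genes of plasminogen and plasma inhibitors 4 were tested and 0 passed (edgeR, 1 at an unadjusted p under 0.05). Serping1, the inhibitor of complement C1 and of kallikrein, was the most abundant at 457 ± 89.5 CPM in SMA libraries and 581 ± 46.6 CPM in WT libraries (log2 fold change -0.35, adjusted p = 0.169). A2m, a broad protease trap, was at 0.883 CPM in SMA libraries and 0.677 CPM in WT libraries (log2 fold change 0.38, adjusted p = 0.626).

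Of 14 receptors and cofactors 2 rose and 12 did not pass after BaCl2. The 2 were Itgam and Itgb2, the chains of the leukocyte integrin Mac-1, which binds fibrinogen and the urokinase receptor. Itgam averaged 28.8 CPM in SMA libraries and 13.2 CPM in WT libraries (log2 fold change 1.13, SE 0.17, adjusted p = 0.00844). Itgb2 averaged 82.1 CPM in SMA libraries and 38.6 CPM in WT libraries (log2 fold change 1.09, SE 0.16, adjusted p = 0.00912). Lrp1, the scavenger receptor that clears activator and serpin complexes, was abundant and did not pass, at 3386 CPM in SMA libraries and 3110 CPM in WT libraries (log2 fold change 0.12, adjusted p = 0.421). Anxa2, a plasminogen receptor subunit, was at 994 CPM in SMA libraries and 1052 CPM in WT libraries (log2 fold change -0.08, adjusted p = 0.549).

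Of the other inhibitors of plasminogen activators 1 was tested after BaCl2 and 0 passed (edgeR, 0 at an unadjusted p under 0.05). Serpini1, or neuroserpin, an inhibitor of tissue-type plasminogen activator in the nervous system, was at 1.59 CPM in SMA libraries and 1.26 CPM in WT libraries (log2 fold change 0.34, adjusted p = 0.555).

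Of 8 genes listed as substrates of the system 7 were tested, and 1 rose after BaCl2. This was F13a1, the clot-stabilizing transglutaminase subunit, also a macrophage product, at 133 ± 56.3 CPM in SMA libraries and 54.8 ± 13.5 CPM in WT libraries (log2 fold change 1.28, SE 0.27, adjusted p = 0.0310). Fn1, fibronectin, did not pass, at 8133 CPM in SMA libraries and 9854 CPM in WT libraries (log2 fold change -0.28, adjusted p = 0.114).

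The thrombin receptors and the genes that start coagulation held 6 of the 12 calls after BaCl2, with 12 of 13 genes tested. Thbd, thrombomodulin, which turns thrombin towards protein C, rose to 744 ± 95.1 CPM in SMA, against 508 ± 17.3 CPM in WT libraries (log2 fold change 0.55, adjusted p = 0.0105). F10, coagulation factor X, rose to 8.45 CPM in SMA, against 3.64 CPM in WT libraries (log2 fold change 1.21, adjusted p = 0.00912). F2rl1, a protease-activated receptor, rose to 6.61 CPM in SMA, against 3.74 CPM in WT libraries (log2 fold change 0.82, adjusted p = 0.0209), and F7, coagulation factor VII, passed too (log2 fold change 1.12, adjusted p = 0.0389). F3, tissue factor, fell to 109 ± 2.29 CPM in SMA, against 142 ± 13.2 CPM in WT libraries (log2 fold change -0.38, adjusted p = 0.0197). Tfpi2, an inhibitor of tissue factor and plasmin, also fell (log2 fold change -0.30, adjusted p = 0.0274).

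Of 62 other serpins 21 were tested after BaCl2, where 1 rose and 2 fell. Serpinb8, an inhibitor of furin, rose to 17.4 CPM in SMA, against 10.8 CPM in WT libraries (log2 fold change 0.69, adjusted p = 0.0174). Serpina3f fell to 27.1 CPM in SMA, against 44.6 CPM in WT libraries (log2 fold change -0.72, adjusted p = 0.0192). Serpina12, the adipokine vaspin, fell at a very low level, 0.103 CPM in SMA libraries and 0.373 CPM in WT libraries (log2 fold change -1.86, adjusted p = 0.0383). The most abundant were Serpinh1, the collagen chaperone, and Serpinf1, pigment epithelium-derived factor, which did not pass. Serpinh1 was at 2993 CPM in SMA libraries and 3576 CPM in WT libraries (log2 fold change -0.26, adjusted p = 0.0722), and Serpinf1 at 775 CPM in SMA libraries and 962 CPM in WT libraries (log2 fold change -0.31, adjusted p = 0.0844).

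**Figure D5:**
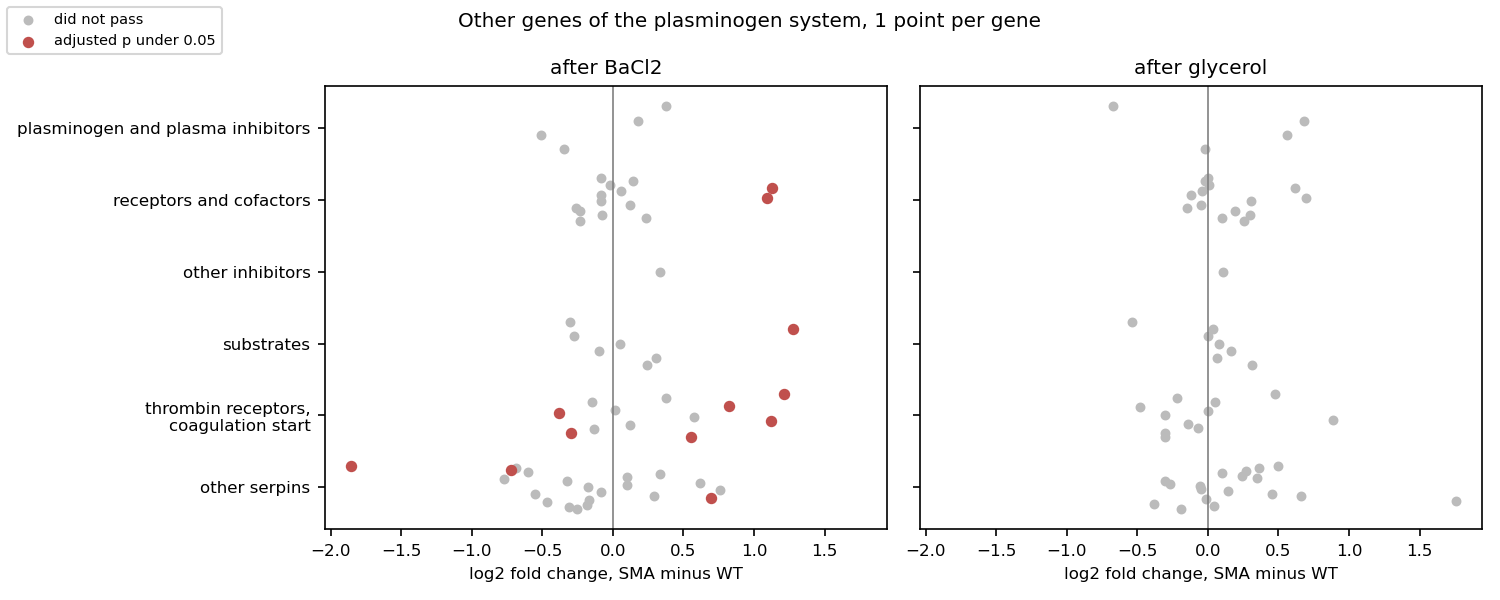
Log2 fold change (SMA minus WT, x axis) of each tested gene of the 6 lists, 1 row per list, after BaCl2 on the left and glycerol on the right; coloured points passed at an adjusted p under 0.05. After BaCl2 the 8 that rose and the 4 that fell are coloured, and after glycerol 0 of 55 are.

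After glycerol 55 listed genes were tested and 0 passed (limma, adjusted p under 0.05; background 2.87%), as the plot of the 6 lists shows, with a median log2 fold change of 0.04. At an unadjusted p under 0.05 there were 13, of which 9 were higher and 4 lower in SMA, out of 55. The authors' deposited table called 9, with 7 higher and 2 lower. Without SMA replicate 3, the SMA library with the lowest macrophage marker sum, 9 passed, 8 higher and 1 lower. Serpinb9b, another serpin, came closest with all libraries, at a low level of 18.2, 27.3, 19.9 and 48.7 in SMA and 9.81, 8.27, 8.06 and 3.71 normalized counts in WT libraries. The groups did not overlap (log2 fold change 1.76, SE 0.42, adjusted p = 0.0567). After BaCl2 Serpinb9b had too few counts to be tested, and the order was the other way round. It had 0, 3 and 2 counts in SMA and 22, 8 and 7 counts in WT libraries. Serpinb8 was next after glycerol, at 1308 ± 296 in SMA and 812 ± 69.4 normalized counts in WT libraries (log2 fold change 0.66, SE 0.16, adjusted p = 0.0643). Itgam averaged 10479 in SMA and 6631 normalized counts in WT libraries (log2 fold change 0.62, adjusted p = 0.0976), and Itgb2 averaged 8074 in SMA and 4733 normalized counts in WT libraries (log2 fold change 0.69, adjusted p = 0.134).

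Itgb1, the most common integrin beta chain, averaged 69694 in SMA and 75809 normalized counts in WT libraries after glycerol, with every SMA library below every WT library, and did not pass (log2 fold change -0.12, adjusted p = 0.138). Tgfb1, the growth factor that plasmin can free from its latent form, averaged 6041 in SMA and 4799 normalized counts in WT libraries (log2 fold change 0.31, adjusted p = 0.196). Fn1 was at 749241 in SMA and 751487 normalized counts in WT libraries (log2 fold change -0.0018, adjusted p = 0.994). Thbd and F3, which passed in opposite directions after BaCl2, had log2 fold changes of -0.30 (adjusted p = 0.337) and -0.0028 (adjusted p = 0.996) after glycerol, and the difference between injuries was not tested for them.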

How the data were processed

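FAP libraries were made from poly(A)-selected RNA with a directional kit, per the labels' protocols. The BaCl2 counts are whole read counts per gene as deposited. The glycerol signal values are normalized counts per gene made by the authors. The authors also deposited log2 fold changes and p-values (raw and adjusted), used only where named. The submitters' processing notes name fastp, Salmon, featureCounts and DESeq2, with no roles or versions; the genome build is not given in the sources used here. Columns of z-scores were not used.

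With R 4.3.3, BaCl2 counts were filtered with filterByExpr, scaled by TMM (factors 0.953 to 1.05) and fitted with the quasi-likelihood test of edgeR 4.0.16. Glycerol values were fitted as log2(value + 1) with limma 3.58.1 and a mean-variance trend. The added 1 pulls fold changes of the lowest genes towards 0, and these fold changes compare means of log2 values. Counts had been planned for the glycerol fit. Fits used all genes and the 2 genotypes of 1 injury, with Benjamini-Hochberg adjustment and calls at an adjusted p under 0.05. DESeq2 1.42.0, other scalings and filters, the replicate number as a block and leaving out each library were tried. The scripts were tested on simulated data. Members, lists and markers were chosen with earlier results of these data known. The 5 members were always named; of each list, up to 4 called genes per injury by smallest p and the 2 highest in level were named, with F7 and Tfpi2 added after their values were seen, as were some genes after glycerol (Serpinb9b, Serpinb8, Itgam, Itgb2). Another gene of the lists is not reported here. Exon lengths are from GENCODE vM21.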

Additional observations from a re-analysis of the deposited data

Results flagged for a closer look

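In 48 checks of a named gene's libraries within a group of 4, the gap between 1 library and the others exceeded Dixon's critical value 4 times, where chance gives about 1 in 20. Plau in WT libraries after glycerol had replicate 4 far above the rest at 92119 normalized counts. Thbd in the same WT group had replicate 4 at 30651 normalized counts, far above the others. Serpinb8 in that WT group also had replicate 4 far above the others, at 916 normalized counts. F10 in SMA libraries after glycerol had replicate 3 far below the rest at 275 normalized counts.

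Of 25 genes checked, 2 had all SMA libraries on one side of the WT mean after BaCl2 and all on the other side after glycerol. Serpine2 was on the lower side after BaCl2 and the higher side after glycerol, and its log2 fold change was 0.84 higher after glycerol than after BaCl2. Serpina3f had the same order, with a log2 fold change 1.08 higher after glycerol. Neither difference was tested, and Serpine2 had been chosen for its lower level in SMA after BaCl2, so for it that side was met by the choice.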

How the results depend on the processing

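Directions of the 5 genes after BaCl2 held under other size factors, DESeq2, no filter and the block, and those after glycerol under another pseudocount, a minimum mean of 50, no trend, quantile scaling and the block, with no member called after glycerol (adjusted p of Plaur 0.0998 to 0.239 and of Serpinb2 0.197 to 0.497). Leaving out each library gave -0.031 to 0.19 for Plau after BaCl2 (-0.031 without SMA replicate 1, -0.012 without WT replicate 3) and, after glycerol, -0.26 to 0.040 for Plau, -0.14 to 0.14 for Plat, 0.20 to 0.36 for Plaur, 0.029 to 0.24 for Serpine2 and 0.36 to 1.40 for Serpinb2. Calls over all genes after BaCl2 were 863, and 1692 by DESeq2, 1867 with no filter and 41 to 1577 with 1 library left out. Of the listed genes 12 passed (8 higher, 4 lower), and 18 by DESeq2 (9 higher, 9 lower), 22 with no filter (9 higher, 13 lower) and 0 to 16 with 1 library left out. Calls after glycerol were 411, and 2 without the trend and 0 to 1645 with 1 library left out; of the listed genes 0 to 9 passed. Same-numbered SMA and WT libraries showed little shared deviation over all genes (correlations -0.03 to 0.02 after BaCl2 and -0.07 to 0.07 after glycerol). With 3 or 4 libraries per group this cannot settle whether the numbers pair samples. The replicate block gave 1144 calls after BaCl2 and 257 after glycerol, and 15 and 0 of the listed genes. The cause of these shifts was not tested. Serpinb2 rests on 126 counts or more per library after BaCl2, and depth after glycerol is unknown.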
